A study of Mus musculus with 8 samples.

Results

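The genes described here belong to the oxygen-sensing pathway around the prolyl hydroxylase gene *Egln3*. They are 8 of the 11911 genes analysed: the prolyl hydroxylase genes *Egln1*, *Egln2* and *Egln3*, together with *Hif1a*, *Hif1an*, *Vhl*, *Arnt* and *Bnip3*. *Egln3* was selected because its RNA was higher in all 4 knockout libraries than in the controls. Its own difference between genotypes is therefore given as a description, without a p-value, and its SE is not read as a test. The other 7 were chosen by name as its partners in the pathway. All 8 had enough counts to be tested, with 364 counts or more in every library.

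The libraries were made from total RNA depleted of ribosomal RNA, with 4 libraries of genotype *Foxp3 YFP-Cre*, called controls, and 4 of genotype *Tdrd3 fl/fl/Foxp3 YFP-Cre*, called knockout; all came from mice. Naïve CD4+ T cells from the spleen had been cultured for 36 h with TGF-β, hamster antibodies to CD3 and CD28, and antibodies to IFNγ and IL-4, conditions that turn them into induced regulatory T cells (iT_regs_). The comparison asks which RNAs differ in iT_regs_ when *Tdrd3*, which encodes a reader of methylated arginine, is deleted. Both genotypes carry the Cre allele. Cre is made from the *Foxp3* locus, so the floxed gene is deleted only in cells that have begun to transcribe *Foxp3*, and the methods name no YFP+ sort ahead of the RNA preparation. The methods describe 3 replicates per genotype, each from a different mouse, whereas 4 libraries per genotype were analysed here and the labels do not tie a library to a mouse. Whether each library is a separate mouse is thus not settled, and p-values are read as measuring only the spread between these libraries. The counts of the analysed genes sum to between 13258239 and 16001676 per library.

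Cells measure oxygen through enzymes that use it as a substrate. The EGLN proteins hydroxylate prolines of the hypoxia-inducible factor HIF-1α when oxygen and 2-oxoglutarate are present, the VHL protein then binds the hydroxylated form for ubiquitination, and HIF1AN hydroxylates an asparagine, which blocks coactivator binding. HIF-1α that escapes pairs with ARNT and induces genes of glycolysis, blood vessel growth and mitophagy, and also *Egln3* itself, which makes a negative feedback loop; in T cells this pathway is known to act on the balance between effector and regulatory programs.

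*Tdrd3* had 18.8, 15.1, 9.95 and 17.7 normalized CPM (counts scaled to a common library total) in controls 1 to 4 and 13.7, 10.7, 12.9 and 11.1 in knockout libraries 1 to 4. The library labelled control 3 thus lay below every knockout library, and the genotypes overlapped. The log2 fold change, knockout over control, was −0.35 with a standard error (SE) of 0.15 (edgeR adjusted p = 0.496), and −0.51 without the library labelled control 3. The same library stood apart in *Cd8a*, a marker of CD8 T cells, with 11.3 CPM against at most 1.37 in the other 7 libraries. Knockout libraries 1 and 4 stood apart over all tested genes, at −17.4 and −18.1 on the first principal component (24.5% of the variance), with the other 6 libraries between −3.36 and 11.4. The log2 fold change of *Egln3* is therefore also given without these libraries. Without knockout libraries 1 and 4 no gene of any list below was called, and at an unadjusted P below 0.05 there were 7 HIF targets outside glycolysis, 3 glycolytic ones and none in the other lists, against 450 of 11505 tested genes.

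Markers matched T cells. All 7 T cell markers were present, their sum ranged from 1959 to 2072.5 CPM, and *Lck* was the most abundant per kilobase, at 539 ± 14.6 CPM (SD, n = 4) in controls. The 5 markers of induced regulatory T cells summed to between 3469 and 3611 CPM in controls and between 3254 and 3387 in knockout libraries, without overlap. *Il2ra*, the most abundant of them per kilobase, made up most of that sum and had a log2 fold change of −0.13 (edgeR adjusted p = 0.152). Of the 5 markers, only *Il2ra* had every knockout library below every control, as did 2.63% of all tested genes. In the other markers the genotypes overlapped. *Ctla4* lay in the other direction, at 564 ± 19.7 CPM in controls and 589 ± 28.7 CPM in knockout libraries (SD, n = 4 each), a log2 fold change of 0.06 (edgeR adjusted p = 0.736), while *Tnfrsf18* and *Ikzf4* had −0.06 and −0.12 (edgeR adjusted p = 0.824 and 0.418). *Foxp3* had 117, 122, 107 and 93.8 CPM in controls 1 to 4 and 77.2, 105, 93.2 and 78.1 in knockout libraries 1 to 4, so knockout libraries 1 and 4 had the least. Its log2 fold change was −0.31 with an SE of 0.088 (edgeR adjusted p = 0.152), and the adjusted p ran from 0.0104, without knockout library 2, to 1.00, without knockout libraries 1 and 4, with log2 fold changes of −0.41 and −0.15 there. Of the other settings, limma-voom gave an adjusted p of 0.0416. With edgeR, leaving out control 4 gave 0.0337 and the replicate number as a block gave 0.0161. In such bulk RNA, fewer cells of a type and less RNA per cell cannot be told apart.

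The 2 CD8 markers, of which *Cd8b1* was the more abundant per kilobase, summed to 9.93, 8.08, 21.8 and 7.72 CPM in controls 1 to 4 and to between 6.68 and 8.35 in knockout libraries. For B cells, 3 of 5 markers were analysed, led by *Cd79b*, with sums of 1.09 to 3.71 CPM. For myeloid cells, 2 of 7 were analysed, led by *Cd68*, with sums of 0.439 to 2.11 CPM, and for NK cells only *Klrd1* of 3, at 0.142 to 1.78 CPM. The myeloid markers *Adgre1*, *Csf1r* and *Itgam*, the 3 red cell markers and the 2 platelet markers were not analysed here. For scale, 3 counts correspond to 0.188 to 0.225 CPM. *Lyz2*, a myeloid gene, had no counts in 6 libraries, which allows up to those 3 counts. It had 0.653 and 1.22 CPM in knockout libraries 1 and 4, which also had the most *Egln3*. *Cd68* lay differently, with 0.479, 1.16, 0.491 and 1.13 CPM in controls 1 to 4. In knockout libraries 1 to 4 it had 0.436, 0.439, 0.451 and 0.883 CPM, the lowest in knockout library 1. Whether other cells in these libraries had a part in the differences below was not tested.

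*Egln3* encodes the prolyl hydroxylase most strongly induced by HIF itself in many cells. It had 113, 118, 98.4 and 100.1 CPM in controls 1 to 4 and 156, 134, 144 and 149 CPM in knockout libraries 1 to 4. The lowest knockout library, number 2, lay above the highest control, number 2, and knockout libraries 1 and 4 were the highest of all. Controls averaged 107 ± 9.42 CPM and knockout libraries 146 ± 9.28 CPM (SD, n = 4 each), a ratio of 1.36. The log2 fold change was 0.44 with an SE of 0.060. It was 0.41 without the library labelled control 3 and 0.38 without knockout libraries 1 and 4. Among all tested genes, 2.25% had every knockout library above every control library; since *Egln3* was selected for that pattern, nothing is read from its place among them. In GRCm39 the gene (ENSMUSG00000035105) spans chr12:54225767-54250647, minus strand. Its exons overlap those of no other annotated gene, and its estimated counts, 1404 to 2195, were whole in every library.

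**Figure D1:**
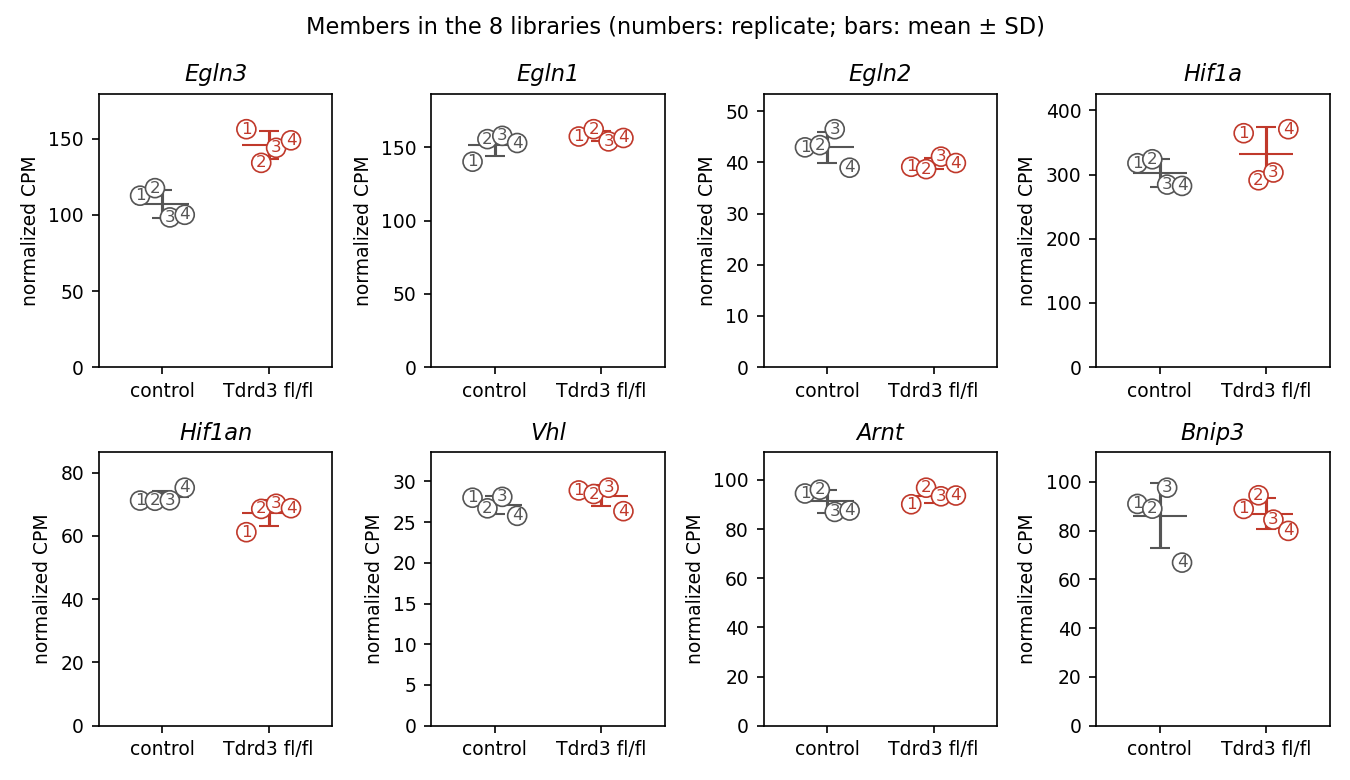
Normalized CPM (vertical axes, each starting at 0) of the 8 genes in 4 control and 4 knockout libraries (marked Tdrd3 fl/fl). Circled numbers are replicates, and bars are the mean ± SD of 4 libraries; *Egln3*, from 98.4 to 118 in controls and 134 to 156 in knockout libraries, and *Hif1an* are the genes without overlap.

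In both other prolyl hydroxylase genes the genotypes overlapped. *Egln1* encodes the main oxygen-dependent regulator of HIF-1α in most tissues, and had 140.3, 156, 158 and 153 CPM in controls 1 to 4 and 157, 162, 154 and 156 CPM in knockout libraries 1 to 4. Apart from control 1, which was the lowest, the genotypes covered nearly the same range. For *Egln1* the log2 fold change was 0.06 with an SE of 0.045 (edgeR adjusted p = 0.813), and 0.02 without control 1. *Egln2*, whose product is mostly nuclear, had 42.9, 43.4, 46.5 and 38.9 CPM in controls 1 to 4 and 39.1, 38.7, 41.1 and 39.9 CPM in knockout libraries 1 to 4. The library labelled control 3 was the highest and control 4 lay among the knockout libraries. For *Egln2* the log2 fold change was −0.11 with an SE of 0.066 (edgeR adjusted p = 0.660). It was −0.07 without the library labelled control 3 and −0.16 without control 4. Exons of *Egln2* share 1620 bases with *Cyp2t4* on the opposite strand, and reads of these could be counted together if counting ignored strand, which the methods do not state.

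Among these 3 genes, compared as CPM per kilobase of merged exons, *Egln3* made up 66.4%, 65.6%, 60.8% and 62.8% of the summed level in controls 1 to 4 and 72.0%, 68.4%, 70.5% and 71.1% in knockout libraries 1 to 4. *Egln3* was thus the most abundant prolyl hydroxylase RNA in all 8 libraries. With the longest transcript as the length, controls averaged a share of 52.6% ± 2.78 and knockout libraries 60.0% ± 1.76 (SD, n = 4 each).

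*Hif1a*, the gene of the oxygen-regulated subunit, had 318, 324, 284 and 282 CPM in controls 1 to 4 and 364, 291, 303 and 371 CPM in knockout libraries 1 to 4. Knockout libraries 1 and 4 lay above every control, while knockout libraries 2 and 3 lay within the control range. Controls averaged 302 ± 21.8 CPM and knockout libraries 332 ± 41.0 CPM (SD, n = 4 each), with a log2 fold change of 0.14, SE 0.068 (edgeR adjusted p = 0.557). Without knockout libraries 1 and 4 it was −0.02, so the sign of this difference rests on those libraries. Estimated counts of *Hif1a* were not whole in any library, so some of its reads had been divided with other genes. Its exons also share 695 bases with the long noncoding RNA gene *Gm15283* on the opposite strand.

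Within each genotype, *Egln3* and *Hif1a* tended to be high in the same libraries. Controls 1 and 2 were above the libraries labelled control 3 and 4 in both genes, and knockout libraries 1 and 4 were above knockout libraries 2 and 3 in both. After subtracting the mean of each genotype, Pearson's r between the 2 genes was 0.85 over 8 libraries (log2 CPM), and 151 other genes of 11316 had a higher r with *Egln3*.

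**Figure D2:**
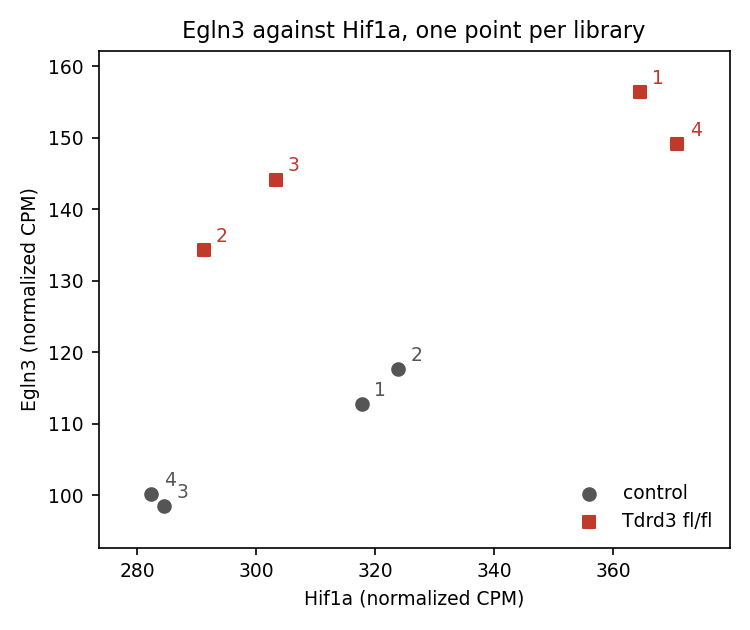
*Egln3* (vertical axis, normalized CPM) against *Hif1a* (horizontal axis, normalized CPM), one point per library, numbered by replicate; neither axis starts at 0. Circles are the 4 controls and squares the 4 knockout libraries (Tdrd3 fl/fl); the squares at 364 and 371 CPM of *Hif1a* are knockout libraries 1 and 4.

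*Hif1an*, which encodes the asparagine hydroxylase that also inhibits HIF-1α, had 71.2, 71.2, 71.3 and 75.3 CPM in controls 1 to 4 and 61.2, 68.6, 70.2 and 68.8 CPM in knockout libraries 1 to 4. Every knockout library lay below every control, knockout library 3 only narrowly so and knockout library 1 by the widest margin. For *Hif1an* the log2 fold change was −0.10 with an SE of 0.056 (edgeR adjusted p = 0.614), and −0.06 without knockout libraries 1 and 4. *Vhl*, the substrate receptor of the ubiquitin ligase, was between 25.8 and 28.1 CPM in controls and between 26.3 and 29.2 CPM in knockout libraries, with a log2 fold change of 0.06 and an SE of 0.072 (edgeR adjusted p = 0.891). *Arnt*, the constitutive partner of HIF-1α, was between 87.0 and 96.0 CPM in controls and between 90.1 and 96.8 CPM in knockout libraries, with a log2 fold change of 0.04 and an SE of 0.050 (edgeR adjusted p = 0.900). The genotypes overlapped in both.

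*Bnip3*, a HIF target that encodes a mitophagy receptor of the outer mitochondrial membrane, had 90.9, 89.0, 97.6 and 66.9 CPM in controls 1 to 4 and 88.9, 94.5, 84.5 and 79.9 CPM in knockout libraries 1 to 4. Control 4 was the lowest library and the library labelled control 3 the highest, so all knockout libraries lay inside the control range. For *Bnip3* the log2 fold change was 0.01 with an SE of 0.085 (edgeR adjusted p = 0.974). Its estimated counts were not whole in 7 of 8 libraries, and its exons share 504 bases with *Gm45507* on the opposite strand.

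Of the 7 members other than *Egln3*, none was called higher or lower by edgeR at an adjusted p below 0.05, against 0.0619% of all tested genes called higher and 0.203% called lower. None had an unadjusted P below 0.05. In 6 of the 16 alternatives 1 member did, *Egln2* without control 4 and *Hif1a* in the others. DESeq2 and limma-voom called none of the 7. The only one whose genotypes did not overlap was *Hif1an*, lower in knockout libraries, against 2.63% of all tested genes with every knockout library below every control library. Their log2 fold changes ran from −0.11 to 0.14, with a median of 0.04 against 0.0013 over the 11317 tested genes.

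Levels between members were compared as CPM per kilobase of merged exons. In controls the order was *Egln3* at 39.9 ± 3.50, *Hif1a* at 36.2 ± 2.61, *Bnip3* at 19.9 ± 3.09 and *Egln1* at 16.9 ± 0.881 (SD, n = 4 each). *Arnt* followed at 9.76 ± 0.499, *Vhl* at 6.51 ± 0.267, *Hif1an* at 6.36 ± 0.179 and *Egln2* at 5.51 ± 0.396. The control ranges overlapped between *Egln3* and *Hif1a*, between *Bnip3* and *Egln1*, and between *Vhl* and *Hif1an*; the other neighbours in the order did not overlap. In knockout libraries *Egln3*, at 49.9 to 58.2 per kilobase, lay above *Hif1a*, at 34.9 to 44.4, in every library. With the longest transcript as the length, *Hif1a* stood first in controls, at 44.1 ± 3.18 (SD, n = 4). The same length put *Egln1* above *Bnip3*, at 22.9, raised *Arnt* to 19.2, and gave *Egln2* 9.81, *Hif1an* 7.13 and *Vhl* 7.08, so the order of several members depends on the length used. By that length, control ranges overlapped between *Hif1a* and *Egln3*, *Egln1* and *Bnip3*, *Bnip3* and *Arnt*, and *Hif1an* and *Vhl*.

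The list of other genes that control HIF comprised 25 genes, among them its other α subunits, ubiquitin ligase subunits, coactivators and chaperones. Of these, 24 were analysed and tested, and none was called in either direction by edgeR; over all tested genes it called 0.0619% higher and 0.203% lower. None had an unadjusted P below 0.05, against 1052 of 11317 tested genes. Over the alternatives the count was 0 to 3 in the list and 450 to 1341 over all tested genes. DESeq2 and limma-voom called none of the list. The median log2 fold change was −0.0030. *Hsp90ab1*, the chaperone gene most abundant per kilobase in the list, had 5188 ± 66.1 CPM in controls and 5408 ± 102 CPM in knockout libraries (SD, n = 4 each), a log2 fold change of 0.06 with an SE of 0.030 (edgeR adjusted p = 0.578). The genotypes did not overlap in 3 of the 24 genes, with 2 higher in knockout libraries, *Hsp90ab1* and *Rack1*, and 1 lower, *Os9*, against 2.25% and 2.63% of all tested genes; *Rack1* and *Os9* were named after their values were seen.

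Of 47 HIF target genes outside glycolysis, 43 were analysed and tested, and edgeR called 1 higher and none lower, against 0.0619% and 0.203% of all tested genes. The called gene was *Bhlhe40*, a transcriptional repressor that is also induced on T cell activation. It had 502, 499.9, 488 and 547 CPM in controls 1 to 4 and 684, 558, 620 and 687 CPM in knockout libraries 1 to 4. Every knockout library lay above every control, knockout libraries 1 and 4 were again the highest, and control 4 came close to knockout library 2. *Bhlhe40* rose by a log2 fold change of 0.32 with an SE of 0.056 (edgeR adjusted p = 0.0148). The call was lost without knockout libraries 1 and 4, at a log2 fold change of 0.21 (adjusted p = 0.844 from edgeR). It was also lost without control 1, control 2 or the library labelled control 3, at an adjusted p of 0.0949, 0.0628 and 0.0566 from edgeR, and without knockout library 1 or 4, at 0.115 and 0.102. In these 5 settings the log2 fold change stayed between 0.28 and 0.32. Over the 16 alternatives the adjusted p of *Bhlhe40* ran from 6.81e-05 to 0.844.

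In the same list, 10 of 43 genes had an unadjusted P below 0.05, against 1052 of 11317 tested genes. Leaving out each library in turn gave 6 to 12 in the list, against 697 to 1230 over all tested genes. Of the 10, *Stc2*, which encodes a secreted glycoprotein, had 14.3 ± 1.05 CPM in controls and 17.7 ± 2.29 CPM in knockout libraries (SD, n = 4 each), with a log2 fold change of 0.31 (edgeR adjusted p = 0.319). *Adm*, the gene of the vasodilator adrenomedullin, was low, at 1.57, 1.89, 2.31 and 2.34 CPM in controls 1 to 4 and 1.38, 1.76, 1.13 and 0.543 CPM in knockout libraries 1 to 4, a log2 fold change of −0.74 (edgeR adjusted p = 0.499). The genotypes overlapped in both. *Mif*, a cytokine gene and the most abundant of the list per kilobase, had a log2 fold change of 0.05 (edgeR adjusted p = 0.856).

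In 4 of the 43 genes every knockout library lay above every control, and in none did every knockout library lie below; the share over all tested genes was 2.25% for higher and 2.63% for lower. Besides *Bhlhe40* these were *Vegfa*, *Ero1a* and *Ndrg1*, named after their values were seen. *Vegfa*, the gene of the main angiogenic growth factor, had 46.7, 49.3, 44.9 and 49.6 CPM in controls 1 to 4 and 54.9, 61.6, 54.0 and 56.9 CPM in knockout libraries 1 to 4. Here knockout library 2 was the highest and not knockout libraries 1 and 4, unlike in *Egln3*. The log2 fold change of *Vegfa* was 0.26 with an SE of 0.062 (edgeR adjusted p = 0.0848), and the alternatives gave adjusted p-values from 0.0345 with DESeq2 to 0.887 without knockout libraries 1 and 4, where its log2 fold change was 0.28. *Ero1a*, of oxidative protein folding, and *Ndrg1*, a stress-responsive gene, had log2 fold changes of 0.18 and 0.23 (edgeR adjusted p = 0.164 and 0.252). The median over the list was 0.05, with 29 of 43 genes above 0 and 14 below, against 5732 and 5585 of 11317 tested genes.

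All 22 glycolytic HIF target genes were tested, and edgeR called none in either direction. Over all tested genes it called 0.0619% higher and 0.203% lower. At an unadjusted P below 0.05 there were 4 of the 22 genes, against 1052 of 11317 tested genes. Leaving out each library in turn gave 2 to 7 in the list, against 697 to 1230 over all tested genes. DESeq2 and limma-voom each called 1, *Hk2*, where they called 81 and 95 genes over the whole table. *Slc2a3*, which encodes a glucose transporter, had 73.6, 77.1, 61.8 and 54.3 CPM in controls 1 to 4 and 77.7, 79.9, 83.6 and 79.7 CPM in knockout libraries 1 to 4. The genotypes were narrowly separate, between control 2 and knockout library 1, and the controls varied more than the knockout libraries. Its log2 fold change was 0.27 with an SE of 0.081 (edgeR adjusted p = 0.205). *Hk2*, the gene of the first enzyme of glycolysis, named after its values were seen, had 303, 305, 310.0 and 304 CPM in controls 1 to 4 and 347, 323, 349 and 354 CPM in knockout libraries 1 to 4. All knockout libraries were above all controls, with knockout library 2 nearest to them. The log2 fold change of *Hk2* was 0.17 with an SE of 0.039 (edgeR adjusted p = 0.0758), and the adjusted p was 0.00694 with DESeq2, 0.0285 with limma-voom and 0.0149 with edgeR without knockout library 2. It was 1.00 with edgeR without knockout libraries 1 and 4, the highest over the alternatives, at a log2 fold change of 0.14.

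*Slc2a3* and *Hk2* were the 2 of 22 genes whose knockout libraries all lay above the controls, and none lay below, against 2.25% and 2.63% of all tested genes. *Ldha*, the lactate dehydrogenase gene most abundant per kilobase in the list, had 3702 ± 169 CPM in controls and 3718 ± 55.4 CPM in knockout libraries (SD, n = 4 each), a log2 fold change of 0.0062 (edgeR adjusted p = 0.972). The log2 fold changes of the 22 genes ran from −0.18 to 0.27 with a median of 0.03. Of these genes 15 were above 0, against 5732 of 11317 tested genes.

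**Figure D3:**
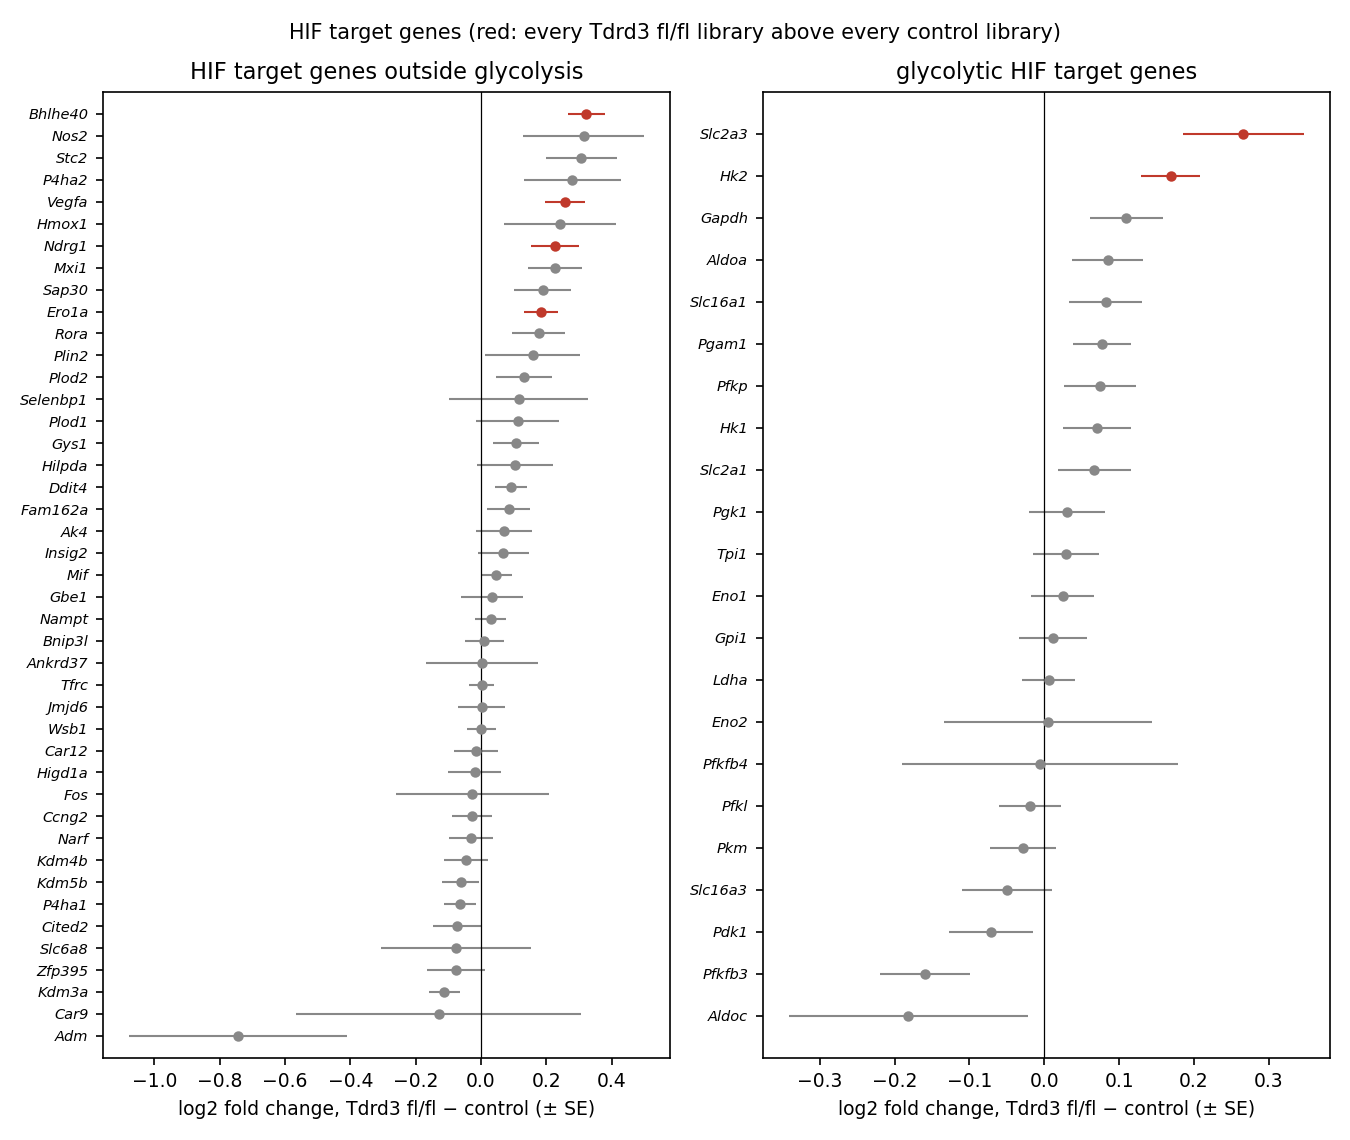
Log2 fold change between 4 knockout (Tdrd3 fl/fl) and 4 control libraries (horizontal axes, points with SE bars) for the 43 HIF target genes outside glycolysis and the 22 glycolytic ones that were tested, sorted by value; the 2 panels have different scales. Red points are the genes whose knockout libraries all lay above all controls, from *Hk2* at 0.17 to *Bhlhe40* at 0.32.

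The EGLN proteins belong to the oxygenases that use iron and 2-oxoglutarate. Of 34 other genes of that class, 30 were analysed and tested, and edgeR, DESeq2 and limma-voom called none. Over all tested genes edgeR called 0.0619% higher and 0.203% lower. In edgeR, 2 of the 30 had an unadjusted P below 0.05, against 1052 of 11317 tested genes. That count was 0 to 5 when each library was left out in turn, against 697 to 1230 over all tested genes. The 2 were *P3h3*, a gene of the prolyl hydroxylase family, and *Asph*, an aspartate hydroxylase gene. *P3h3* was low, at 0.790 ± 0.335 CPM in controls and 1.45 ± 0.229 CPM in knockout libraries (SD, n = 4 each), with a log2 fold change of 0.86 (edgeR adjusted p = 0.464). *Asph* had 3.83, 3.42, 3.43 and 3.26 CPM in controls 1 to 4 and 5.81, 4.07, 4.81 and 4.48 CPM in knockout libraries 1 to 4. In *Asph*, as in *Egln3*, knockout library 1 was the highest and knockout library 2 the lowest of its genotype, without overlap with the controls. Its log2 fold change was 0.45 (edgeR adjusted p = 0.471). *Jmjd7*, named after its values were seen, was the one gene of this list with every knockout library below every control, at a log2 fold change of −0.13 (edgeR adjusted p = 0.812). *Asph* and *Jmjd7* are thus 1 of 30 genes in each direction, against 2.25% higher and 2.63% lower of all tested genes. *Alkbh5*, an RNA demethylase gene and the most abundant per kilobase, had a log2 fold change of −0.01 (edgeR adjusted p = 0.955), and the median of the list was −0.00034.

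The mitophagy list placed *Bnip3* beside 21 other receptor and adaptor genes, of which 20 were analysed and tested. None was called by DESeq2, limma-voom or edgeR, which called 0.0619% of all tested genes higher and 0.203% lower. At an unadjusted P below 0.05 in edgeR there were none, against 1052 of 11317 tested genes. When each library was left out in turn there were 0 to 2, against 697 to 1230 over all tested genes. The median log2 fold change was 0.0061. *Phb2*, an inner membrane receptor gene and the most abundant per kilobase, had 316 ± 19.2 CPM in controls and 324 ± 6.66 CPM in knockout libraries (SD, n = 4 each), a log2 fold change of 0.03 (edgeR adjusted p = 0.889). In *Gabarapl1* and *Nipsnap1*, 2 of the 20 genes, every knockout library lay above every control (2.25% of all tested genes), with log2 fold changes of 0.09 and 0.13 (edgeR adjusted p = 0.758 and 0.548); they were named after their values were seen.

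Likeness to *Egln3* was measured as Pearson's r of log2 CPM over the 8 libraries. The highest r were those of *St6galnac6*, a sialyltransferase gene, and *Trib3*, a stress-induced pseudokinase gene, both at 0.97, *Arhgap26* at 0.97, *Ggh* at 0.96 and *Lipo3* at 0.95. Because *Egln3* was selected for a difference between genotypes, these genes share that difference, and their log2 fold changes ran from 0.23 for *Lipo3* to 0.30 for *St6galnac6*. *Trib3* had 44.3, 46.8, 41.2 and 42.4 CPM in controls 1 to 4 and 54.0, 52.3, 54.9 and 52.6 CPM in knockout libraries 1 to 4. Its knockout libraries were all higher, as in *Egln3*, but closer to each other.

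After subtracting genotype means, the highest r with *Egln3* over the 8 libraries were those of *Stat3* at 0.99, *Tent4a* and *Stradb* at 0.98, and *Zkscan6* and *Baz2b* at 0.97. *Stat3*, the gene of a transcription factor activated by IL-6 family cytokines, had 765, 795, 653 and 662 CPM in controls 1 to 4 and 819, 689, 743 and 802 CPM in knockout libraries 1 to 4. The order of libraries within each genotype was the same as in *Egln3*, whereas the genotypes overlapped. These genes were picked as the highest of 11316, so a high r among them is what the choice gives. Among the members, r after subtracting genotype means ran from −0.54 for *Hif1an* to 0.85 for *Hif1a*; it was −0.43 for *Egln1* and 0.09 for *Bnip3*.

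HIF binds DNA at the letters ACGTG or GCGTG. Promoter windows of RefSeq (table of build GRCm38.p6), from 250 bases before to 50 after a start listed there, were searched on both strands. On the other strand the letters read CACGT and CACGC. Such a start need not be the outermost one of the gene. In GRCm39 the *Hif1a* window, chr12:73954391-73954690, lies inside the gene, which begins at 73948149 on the plus strand. The *Egln1* window also lies inside its annotated gene, which reaches 125676865 on the minus strand. All 8 members had a window, and 6 of the 8 genes held at least 1 match. Counted by window, 43.8% of all 32851 windows and 63.0% of the 11434 windows of tested genes held one. A gene may have more than 1 window, as *Egln2* with 2, so the share of genes and the shares of windows are unlike measures. *Vhl* and *Hif1an* held none. The windows of *Egln3*, *Egln1* and *Bnip3* are shown because these members are known HIF targets. Each was found once in GRCm39, all 3 on the minus strand: *Egln3* at chr12:54250611-54250910, *Egln1* at chr8:125675944-125676243 and *Bnip3* at chr7:138511186-138511485. They are written 5′ to 3′ along the gene, and capitals mark the letters searched; in CACGTG the matches of both strands overlap.
Egln3: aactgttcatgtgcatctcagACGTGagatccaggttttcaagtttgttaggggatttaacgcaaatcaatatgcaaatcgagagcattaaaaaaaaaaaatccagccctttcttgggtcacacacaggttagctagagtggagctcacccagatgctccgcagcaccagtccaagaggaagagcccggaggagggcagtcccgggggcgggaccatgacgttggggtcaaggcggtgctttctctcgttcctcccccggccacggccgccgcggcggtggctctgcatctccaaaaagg
Egln1: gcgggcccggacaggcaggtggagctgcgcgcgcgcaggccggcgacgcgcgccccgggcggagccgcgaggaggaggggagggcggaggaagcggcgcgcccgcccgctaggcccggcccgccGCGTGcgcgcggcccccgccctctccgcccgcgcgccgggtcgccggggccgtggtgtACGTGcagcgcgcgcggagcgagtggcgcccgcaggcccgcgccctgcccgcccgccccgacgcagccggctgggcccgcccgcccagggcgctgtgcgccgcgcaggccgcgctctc
Bnip3: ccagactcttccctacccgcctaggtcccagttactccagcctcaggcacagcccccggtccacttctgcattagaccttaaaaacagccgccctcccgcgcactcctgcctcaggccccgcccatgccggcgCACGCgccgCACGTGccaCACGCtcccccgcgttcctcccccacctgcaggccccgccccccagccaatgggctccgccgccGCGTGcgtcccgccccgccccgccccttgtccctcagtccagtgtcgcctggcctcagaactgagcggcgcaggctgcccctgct
*Egln3* held 1 match, 229 bases upstream of the start, *Egln1* held 2, at 126 and 68 bases upstream, and *Bnip3* held 5, of which 2 overlap. Of the 3 genes shown, *Bnip3* had the most matches. Among the members not shown, *Egln2* had 6 in 1 of its 2 windows and 1 in the other. A match is a description of these letters, and binding was not measured in these data.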

How the data were processed

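RNA was sequenced from 8 libraries of splenic CD4+ T cells polarized to iT_regs_ for 36 h, 4 per genotype. Per the labels and methods, the authors aligned reads to GRCm39 with STAR 2.7.8a and deposited estimated counts per gene from the E/M algorithm of Partek, which divides reads that match several genes. The counts were not normalized; 33.2% differ from a whole number by more than 0.005. Annotation version and strandedness of counting are not given in the sources used here.

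Estimated counts were rounded, filtered with filterByExpr (11317 of 11911 genes kept), scaled by TMM and tested for genotype alone with the two-sided quasi-likelihood F-test of edgeR 4.0.16 (R 4.3.3). P-values were adjusted by the Benjamini-Hochberg method across every tested gene, and the code was tested on simulated data. An SE was derived as the log2 fold change over the root of F. DESeq2 1.42.0 and limma 3.58.1 served as alternatives, beside other filters and scalings, the replicate block and left-out libraries. Log2 CPM for correlations used a prior count of 2, and lengths came from the GENCODE annotation of GRCm39. The members and lists were chosen with earlier results of these data known, and some genes stand in more than 1 list. Named were the members, *Tdrd3*, *Foxp3*, called genes, up to 3 more per list with the smallest P (below 0.05, fold of at least 1.2), the most abundant gene per kilobase of each list, the 5 genes most like *Egln3* by each measure and the top markers. At this depth 3 counts correspond to 0.188 to 0.225 CPM; such floors cover counting error only.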

Additional observations from a re-analysis of the deposited data

Results flagged for a closer look

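Within a genotype, a library was singled out where its gap to the nearest other library was a larger share of the range of the 4 libraries than Dixon's 95% critical value. Chance alone does this in about 1 of 20 groups, a rate that need not hold for genes at a few counts. Over 49 genes, 9 of 98 groups did so, and no explanation was tested. The 98 include groups of equal values, such as *Lyz2* in controls, in which no library can be singled out. Among the members this occurred in *Hif1an*, where control 4 had 75.3 CPM and the other controls 71.2 to 71.3. Among the list genes, knockout library 2 had 279 CPM of *Alkbh5* against 262 to 265, and control 4 had 36.9 CPM of *Gabarapl1* against 39.8 to 40.4. Among markers of T cells and iT_regs_, knockout library 3 had 160.4 CPM of *Cd3e* against 138 to 142 and 233 CPM of *Ikzf4* against 214 to 217. The library labelled control 3 had 11.3 CPM of *Cd8a* against 0.873 to 1.37 in the other controls, and 1.61 CPM of *Pax5*, a B cell gene, against 0.205 to 0.425. Knockout library 4 had 0 CPM of *Pax5* against 0.188 to 0.225, and 0.883 CPM of *Cd68* against 0.436 to 0.451, which are differences of a few counts.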

How the results depend on the processing

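Across 16 alternatives the log2 fold change of *Egln3* ran from 0.38 to 0.49; its sign follows from the choice of the gene and is no sign of stability. None of the other 7 members was called in any of them. *Bnip3* was above 0 in 13 of the 16 and *Hif1a* in 15. For HIF target genes outside glycolysis the count of called genes was 1 in the fit reported; it was 2 with DESeq2, 0 without knockout libraries 1 and 4, and 0 to 1 when each library was left out in turn. For glycolytic HIF target genes it was 0; DESeq2 and limma-voom each gave 1, leaving out knockout libraries 1 and 4 gave 0, and leaving out each library gave 0 to 1. The 3 other lists had no called gene in any alternative. Over the whole table edgeR called 30 genes, DESeq2 81 and limma-voom 95; leaving out knockout libraries 1 and 4 together gave 3, and leaving out each library in turn gave 6 to 162. The cause was not tested. With the replicate number as a block 87 genes were called, *Foxp3* among them (edgeR adjusted p = 0.0161), and no call among the members or pathway lists changed; same-numbered libraries did not deviate together (correlations from −0.046 to 0.069), so the numbers are not taken to pair libraries. With 4 libraries per genotype, the differences seen in the 7 members were not separated from the spread between libraries at an adjusted p below 0.05. *Hif1an* was the only one of the 7 whose genotypes did not overlap.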
